A study of Bos grunniens with 12 samples.

Results

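The peaks described here are short differential m6A peaks that lie in the second or a later exon of a transcript in yak testis. A peak was a member if the table comparing the ages annotated it to exon 2 or higher and gave it a width of at most 1000 bp, and 543 of the 1438 differential peaks met both conditions. The members were therefore selected on the differential call, the exon entry and the width. The remaining differential peaks fell in exon 2 or higher with a larger width (327 peaks), in 3′ UTRs (257 peaks), in first exons (221 peaks) and in 5′ UTRs (90 peaks).

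Testes came from male domesticated yaks, 3 aged 1.5 years (Y group, before sexual maturity, taken at castration) and 3 aged 5 years (M group, after sexual maturity, euthanized according to the article). No agent, transgene or allele was involved in either group. Each testis gave a library of RNA fragments immunoprecipitated with an m6A antibody (IP) and a library of the fragments before that step (input), 12 libraries in all. Expression was taken from the 6 input libraries as FPKM, which counts fragments relative to transcript length and library size, and each peak is listed once for the comparison of the ages, without a value per animal, a fold change, a direction or a p-value. Whether m6A at a peak was higher at 1.5 or at 5 years is therefore not stated for any peak below.

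N6-methyladenosine (m6A) is a methylated adenosine in mRNA. It is placed by a methyltransferase complex built around METTL3 and METTL14, can be removed by FTO and ALKBH5, and is bound by reader proteins such as the YTH family, which influence splicing, translation and decay of the transcript. In mammals the mark is found mostly around stop codons, in 3′ UTRs and in long internal exons, and the testis depends on it during spermatogonial differentiation, meiosis and spermatid formation.

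The FPKM of an input library summed to between 116187 and 139921, and the number of reads behind a value is unknown. The 3 Y libraries resembled each other closely (Pearson's r of log2 values across genes, 0.952 to 0.958). Of the M libraries, replicate 2 was nearest to them (0.942 to 0.947) and replicate 1 farthest (0.817 to 0.837). Whole testis was used, so fewer cells of a type and less RNA per cell cannot be told apart. Marker lists were checked next, and none of their genes in the table was at 0 in every library. The summed FPKM of 4 of 10 elongating spermatid markers was 1154 to 1195 in the Y libraries and 263 to 849 in the M libraries. TNP1, a protein that replaces histones in spermatids, had 852 to 883 FPKM in the libraries labelled 1.5 years and 201 to 641 FPKM in those labelled 5 years. Spermatid transcripts were thus more abundant in the group labelled as before sexual maturity, which goes against that label. The stage field of the record also runs opposite to the ages in the titles. The tissue sections described in the article run with the titles, with spermatogonia and few primary spermatocytes before maturity and every stage after it. TNP1 was at 201 FPKM or more in each library of both groups, whichever way the ages are assigned. Whether the ages of the libraries were exchanged was not tested, and each direction below rests on the ages in the titles. The summed FPKM of 6 of 10 Sertoli cell markers was 73.7 to 86.6 in the Y libraries and 108 to 257 in the M libraries, and that of 9 of 10 peritubular and stromal markers was 32.5 to 36.5 and 49.0 to 80.0. In each of these 3 lists M replicate 1 stood farthest from the Y libraries and M replicate 2 nearest, and the part of cell composition in the values of the host genes below was not tested.

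The first question was where in the transcript the short peaks lie. The last exon held 188 of the 543 peaks (34.6%, 95% Wilson interval 30.7% to 38.7%, counting error only), and internal exons held 355. The next to last exon held 63 peaks (11.6%). The most frequent single exon number was 2, with 119 peaks (21.9%, 18.6% to 25.6%), and for 48 of these the second exon was also the last one. The median exon number was 5 (interquartile range 3 to 12) in transcripts with a median of 10 exons (5 to 19).

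The share of peaks in the last exon was 49.2% in transcripts of 3 to 5 exons (59 of 120 peaks), 33.9% in those of 6 to 10 exons (41 of 121), 25.8% in those of 11 to 20 exons (34 of 132) and 4.92% in those of 21 or more (6 of 122). If every exon from the second on held peaks equally often, these shares would be 36.4%, 15.3%, 7.36% and 3.21%, so a decrease follows from the number of exons alone. Exon lengths are not taken into account in these shares, and peaks annotated to 3′ UTRs form a separate class that is not counted here. Among the 327 wide peaks of later exons, 5 were in the last exon (1.53%, 0.655% to 3.53%). Width is measured on the genome with introns included, and a last exon is followed by no intron, so the width limit itself bears on this difference and no test was made.

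**Figure D1:**
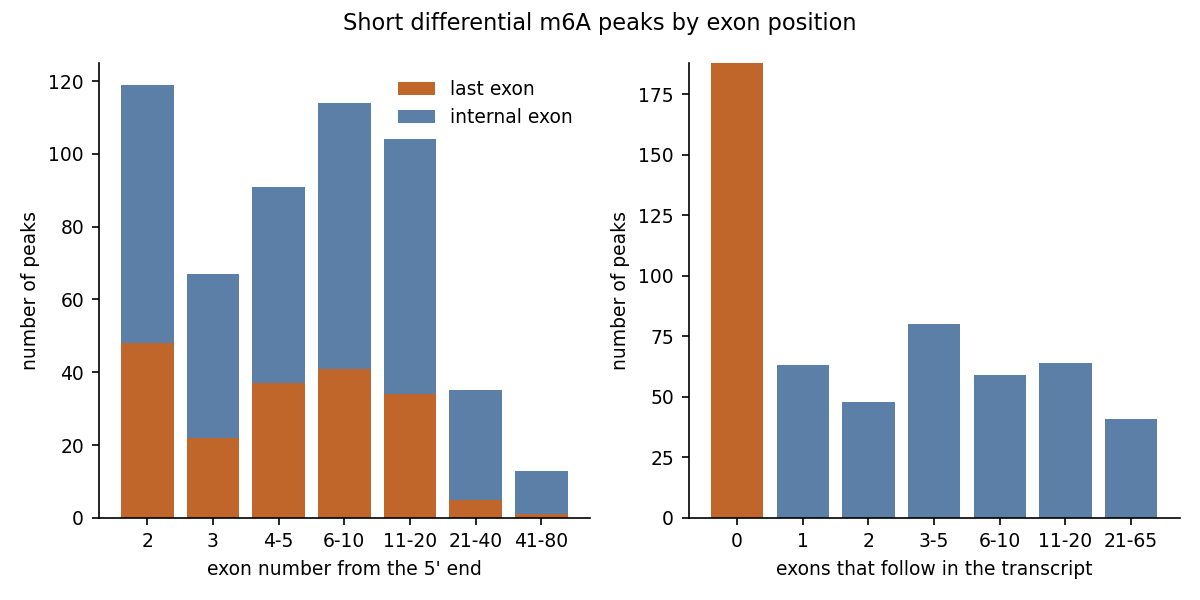
Number of short differential m6A peaks (y axis) by exon number counted from the 5′ end (left) and by the number of exons that follow in the transcript (right), split into last exons (orange) and internal exons (blue). Exon 2 holds 119 peaks, 48 of them in a last exon, and 188 peaks have no exon after them.

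Peaks at high exon numbers were few, although 122 peaks lay in transcripts of 21 or more exons, 116 of them in internal exons. Exons 21 to 40 held 35 peaks and higher exon numbers 13. The highest was exon 80 of 83, in ENSBGRG00000021239, a gene listed without a symbol. MACF1, a giant protein that links microtubules to actin, carried a peak in exon 74 of 95, and HUWE1, a ubiquitin ligase, in exon 64 of 85. DNAH10, a motor protein of the sperm flagellum and of cilia, carried one in exon 62 of 80. ATM, the kinase that senses DNA double-strand breaks, carried one in exon 61 of 62 (LU_Bosgru_v3.0, chr13:70874663-70874956), 100 bp before the end of the transcript.

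The median width was 294 bp (198 to 448, lowest 144 and highest 997), with a median of 250 bp in last exons and 299 bp in internal exons. Widths clustered at steps. For 349 of the 543 peaks (64.3%) the width lay within 2 bp of a multiple of 50, against 27 of 327 wide peaks (8.26%). TIMMDC1, a mitochondrial complex I assembly factor, held the narrowest peak at 144 bp. At the width limit, peaks of MACF1 (997 bp) and CCDC50 (986 bp) lay just inside, and those of FAAP100 (1005 bp), SH3BP2 (1009 bp) and CT83 (1010 bp) just outside.

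The distance to the annotated transcript end was taken for the 504 peaks whose exon entry named the same transcript as the position columns. Peaks in last exons ended a median of 347 bp before the transcript end (99 to 1047 bp, n = 166), and 96 of them ended within 500 bp of it. For internal exons the median distance on the genome was 11278 bp (n = 338), introns included. At 17 last-exon peaks the peak and the transcript ended at the same base. Among these were RAMP3, which modifies the calcitonin receptor family, ADCY9, an adenylate cyclase, and TIMMDC1, and 2 further peaks ran past the annotated end.

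**Figure D2:**
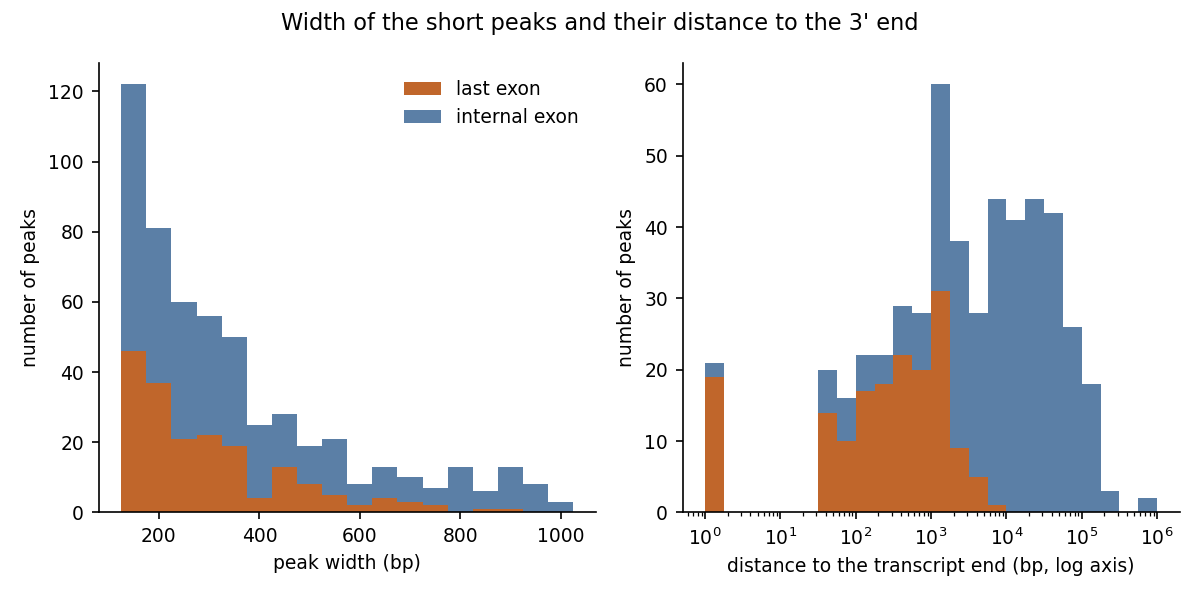
Width of the 543 short peaks in bp (left) and distance in bp from the peak to the annotated transcript end for 504 of them (right, log axis, peaks at or past the end drawn at 1 bp), with the number of peaks on the y axes. Last-exon peaks (orange) have a median distance of 347 bp and internal-exon peaks (blue) of 11278 bp.

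The peaks lay in exons of 467 genes. A single short peak was found in 410 genes (87.8%), while 43 genes held 2, 10 held 3, 3 held 4 and 1 held 5. The exons were last exons only in 162 genes, internal only in 296 and both in 9. At least 1 other differential peak was present in 60 of these genes (12.8%), of which 35 carried a wide peak in a later exon, 16 a peak in the first exon, 11 one in the 3′ UTR and 6 one in the 5′ UTR. Members were found on 31 chromosomes, with 2 peaks on unplaced scaffolds and the most on chromosome 20 (37 peaks in 32 genes) and chromosome 26 (34 peaks in 30 genes). Chromosome 26 held 6.26% of the short peaks and 2.79% of the other differential peaks.

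Some of the short peaks shared an exon with another. There were 37 such exons with 83 peaks, 13 of them last exons, and in 23 the peaks together spanned over 1000 bp. Neighbouring peaks of a gene did not overlap, the smallest gap was 97 bp, and 13 gaps were at most 100 bp. Peaks of 1 exon share their transcript and are not independent of each other.

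CASP8AP2, which binds caspase 8 and takes part in histone gene expression, held the most, with 1 peak of 949 bp in exon 7 and 4 peaks in exon 8 of 9 (chr10:29132999-29135543). KIAA0232 held 4 peaks within 1944 bp of its exon 6 of 9 (chr6:336325-338268). RAI1, a chromatin-associated regulator of transcription, held 3 peaks in exon 2 of 5 (chr19:32481540-32483035), and AHDC1, a DNA-binding protein, held 3 in exon 2 of 2 (chr2:11898004-11900433). PABPC5, a poly(A)-binding protein encoded on the X chromosome, held 3 in exon 3 of 5 (chrX:42736347-42737642). In ZNF292 and ZNF470, both zinc finger proteins, all 3 peaks lay in the last exon, spanning 3086 bp and 5233 bp.

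**Figure D3:**
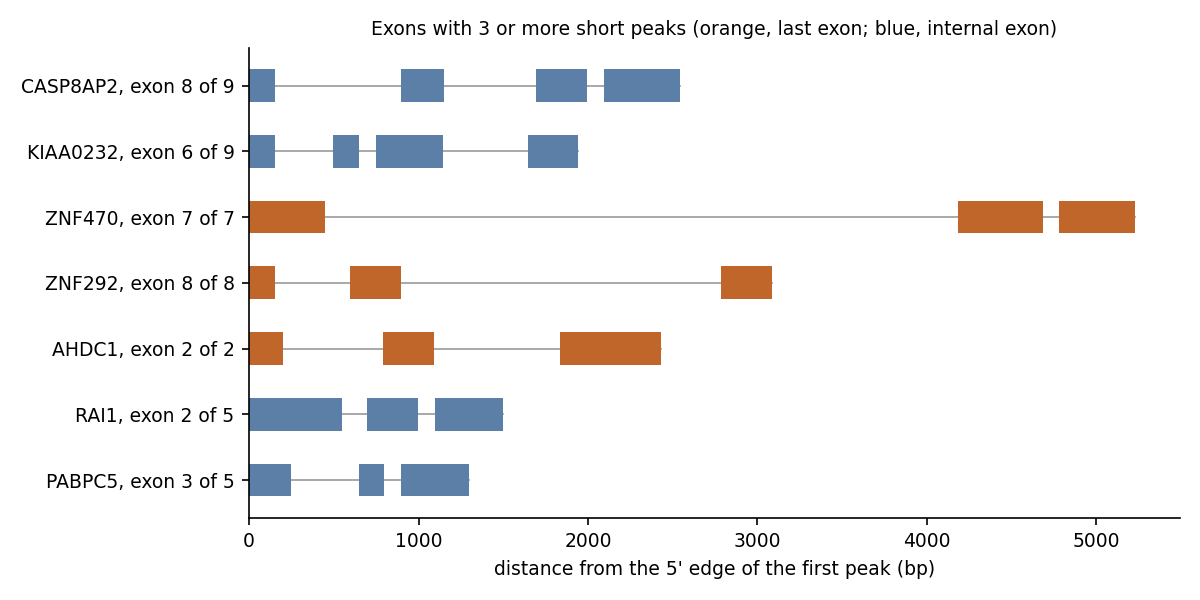
The 7 exons with 3 or more short peaks, each peak drawn to scale as a bar at its distance in bp from the 5′ edge of the first peak, in the direction of transcription (orange, last exon; blue, internal exon). CASP8AP2 exon 8 and KIAA0232 exon 6 hold 4 peaks each, and the peaks of ZNF470 span 5233 bp.

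In other genes the peaks lay in more than 1 exon. FREM2, an extracellular matrix protein of basement membranes, had 2 peaks in exon 3 and 1 in exon 26 of 26, which lies 299 bp before the end. TRANK1 had peaks in exons 11, 12 and 22 of 25. CHSY1, a chondroitin sulfate synthase, had 1 in exon 3 and 2 in exon 4 of 4. DMXL2, which regulates the vacuolar proton pump, had peaks in exons 18 and 24 of 44, and TNRC18 in exons 4, 5 and 28 of 29. For 4 peaks on chromosome 19 the exon entry named ENSBGRG00000022479, exons 26 to 32 of 69, while the gene column named SLC26A11. The exon entry and the gene column held different identifiers for 30 of the 543 peaks, and that of the exon entry was taken as the host gene. For 9 of these peaks the exon entry gave a transcript identifier in place of a gene, for 7 both identifiers carried the same symbol, and for 14 they did not. The 467 host genes therefore include 8 known only by a transcript identifier. FPKM was given for 441 host genes, which held 511 peaks, and the other 26, those 8 among them, and their 32 peaks have no expression value here.

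Genes with a symbol that starts with ZNF, most of which encode zinc finger proteins that bind DNA, hosted 34 of the short peaks in 27 genes. This group was picked after the peaks had been seen and gets no test. They accounted for 26 of the 188 peaks in last exons (13.8%, 9.62% to 19.5%), 8 of the 355 in internal exons (2.25%, 1.15% to 4.38%) and 4 of the 327 wide peaks (1.22%), while 430 of the 20953 genes of the table (2.05%) carried such a symbol. The zinc finger family is rich in paralogs, and reads that fit more than 1 location were not retained. ZNF470 alone is the symbol of 13 identifiers. Examples with the peak in the last exon were ZNF292, ZNF470, ZNF618 (2 peaks in exon 14 of 14) and ZNF451 (exon 4 of 4).

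GO terms were given for 395 host genes. The nucleus was named for 163 of them (41.3%, against 33.3% of annotated tested genes and 37.6% of genes with only other differential peaks). DNA binding was named for 69 (17.5%, against 7.01% and 8.57%), and transcription factor activity specific to RNA polymerase II for 52 (13.2%, against 4.32% and 5.71%). Chromatin binding was named for 14 host genes (3.54%, against 1.66% and 1.20%), among them KDM6A, an H3K27 demethylase, ATRX, a chromatin remodeler, and EP400, a remodeling ATPase. DNA repair was named for 9 (2.28%, against 0.95% and 0.602%) and the extracellular matrix for 8 (2.03%, against 0.675% and 0.752%). Spermatogenesis was named for 5 host genes (1.27%, against 1.75% and 0.902%), including ATRX, RAI14, KIT and PPP6R2. The meiotic cell cycle was named for none, against 0.257% and 0.150%. Microtubule was named for 7 (1.77%, against 1.34% and 0.451%) and cilium for 3 (0.759%, against 0.861% and 0.150%). These shares are descriptions without an enrichment test. The annotation itself is uneven, since RNA-directed DNA polymerase activity, a transposon function, stands on 19.5% of all annotated genes. In KEGG the term with the most host genes was herpes simplex virus 1 infection, with 23 of 106 annotated hosts (21.7%, against 24.4% of annotated tested genes).

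The second question was how the genes under these peaks were expressed at both ages. The host genes were transcribed at moderate levels, with a median of 3.57 FPKM over the 6 libraries (2.16 to 5.40), and the median over all tested genes was 4.34 (1.76 to 10.4). A gene was tested if its mean was at least 0.5 FPKM, which 437 of the 441 host genes met (99.1%) against 12437 of 20953 genes of the table (59.4%). The 4 hosts below it were MAG, listed at 0 in every library, INTS6L, SLC5A4 and ENSBGRG00000010981, 1 of 15 identifiers with the symbol SOX11.

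Because input libraries were also the control in the peak comparison, the host gene values are not independent of how the peaks were chosen and are given as a description. Differences are on the log2(FPKM + 0.1) scale, M minus Y, from limma fitted over all tested genes. The call was an unadjusted p under 0.05 with a log2 difference over 1 in size. It was met by 42 host genes, 34 higher and 8 lower at 5 years. Over all tested genes the call was met by 9.26%, with 4.01% higher and 5.25% lower. No host gene had an adjusted p under 0.05 in limma (lowest 0.129), where 0.0322% of all tested genes did. An unadjusted p under 0.05 alone was seen in 155 host genes, 121 higher and 34 lower, beside 25.1% of all tested genes, 14.2% higher and 10.9% lower. All 3 M libraries lay above all 3 Y libraries in 157 host genes and below them in 44, beside 19.8% and 13.9% of all tested genes.

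The median log2 difference of the host genes was 0.21 (-0.08 to 0.53), and that of all tested genes was 0.04. Some genes had other differential peaks and no short one. Their median was 0.24 with a 3′ UTR peak, 0.19 with a first-exon peak, 0.13 with a wide later-exon peak and 0.04 with a 5′ UTR peak. All M libraries lay above all Y libraries in 32.9%, 23.7%, 27.9% and 19.2% of these, in that order, and in 35.9% of the host genes. Measured from the Y mean, the median host gene stood at 0.35 in M replicate 1, at 0.11 in M replicate 2 and at 0.23 in M replicate 3. Of the 34 host genes called higher, 33 had their highest value in M replicate 1 and 32 had the lowest of the M values in replicate 2. Without M replicate 1 the call was met by 14 of 435 host genes (13 higher, 1 lower) and the median was 0.17. Of the 12345 genes tested without that library, 394 met the call, 169 of them as lower, and their overall median was 0.05. Without M replicate 2 the call was met by 93 of 437 host genes (66 higher, 27 lower). Of the 12450 genes then tested, 2034 met the call (919 higher, 1115 lower). An adjusted p under 0.05 was then seen in 125 host genes (28.6%), beside 20.3% of all genes tested without that library. Genes with a peak in the last exon only had a median of 0.30 (16 of 148 called) and those with internal peaks only 0.20 (24 of 280 called).

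**Figure D4:**
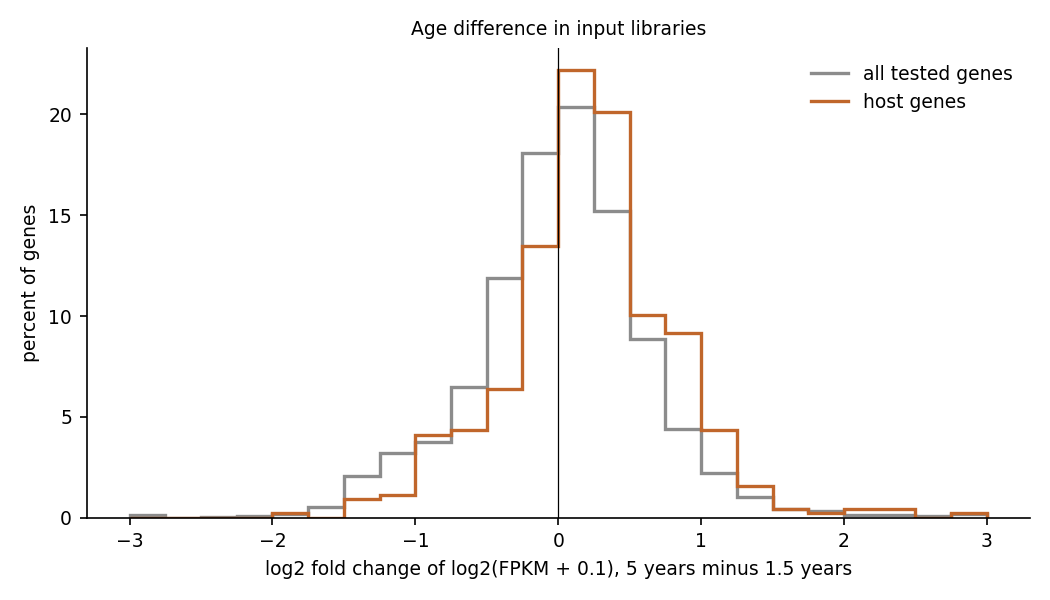
Share of genes in percent (y axis) by log2 difference between 5 and 1.5 years in the input libraries (x axis, bins of 0.25, values beyond 3 in the end bins), for 437 host genes of short peaks (orange) and 12437 tested genes (grey). The median is 0.21 for host genes and 0.04 for all tested genes.

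FREM2 showed the largest log2 difference among the 437 tested host genes. It had 0.363, 0.0694 and 0.101 FPKM in the Y libraries and 5.10, 1.57 and 2.54 FPKM in the M libraries. These groups did not overlap, and the log2 difference was 3.50 ± 0.542 (SE, limma adjusted p = 0.129). FAM20C, the kinase that phosphorylates secreted proteins in the Golgi apparatus, had 1.63, 1.71 and 1.74 FPKM at 1.5 years and 13.4, 5.60 and 9.17 FPKM at 5 years. The Y libraries of FAM20C were close together while the M libraries spread over a wide range, and the log2 difference was 2.32 ± 0.299 (SE, limma adjusted p = 0.129). Its peak of 680 bp lies in exon 9 of 10 (chr26:7353851-7354530). F10, coagulation factor X, had 0.892, 0.772 and 0.720 FPKM against 8.68, 1.77 and 5.11 FPKM, with a peak in the last of its 9 exons.

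LTBP4, which stores latent TGF-beta in the matrix, had 4.71, 4.22 and 5.38 FPKM at 1.5 years and 17.6, 8.60 and 11.6 FPKM at 5 years. NTN4, a netrin of basement membranes, had 1.90, 1.46 and 1.58 FPKM against 7.12, 2.95 and 4.64 FPKM. SEMA6C, a semaphorin involved in axon guidance, had 2.27, 2.35 and 1.95 FPKM against 7.79, 3.92 and 4.60 FPKM. These 3 genes were selected among hosts without overlap between the ages, so every M library was above every Y library. Their log2 differences were 1.33, 1.44 and 1.22. Without M replicate 1 the difference of SEMA6C was 0.93, below the size of the call. Of the 8 host genes annotated with the extracellular matrix, LTBP4 and XRCC4, which is known as a DNA end-joining factor, met the call as higher and none met it as lower. The shares over all tested genes were 4.01% higher and 5.25% lower. At an unadjusted limma p under 0.05 alone, 3 of the 8 were higher and 1 was lower. The peak of LTBP4 lies in exon 16 of 30, that of NTN4 in exon 2 of 10 and that of SEMA6C in the last of 18 exons.

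IRF1, a transcription factor of the interferon response, had 2.57, 2.86 and 2.47 FPKM at 1.5 years and 9.14, 4.74 and 6.47 FPKM at 5 years, with a peak in exon 4 of 8 (chr8:23323191-23323809). Its log2 difference was 1.29 ± 0.243 (SE, limma adjusted p = 0.154). DOT1L, the H3K79 methyltransferase, had 6.67, 5.35 and 4.64 FPKM against 14.4, 8.68 and 11.1 FPKM, on 1 of 4 identifiers with that symbol. TRIM62, a ubiquitin ligase, had a mean of 1.49 ± 0.0914 FPKM against 3.68 ± 1.23 FPKM (SD, n = 3 each), and the kinase NUAK1 had 1.25 ± 0.157 against 3.27 ± 1.20 FPKM. DCLK3, also a kinase, had 0.442 ± 0.188 against 1.67 ± 0.601 FPKM, and the scavenger receptor SCARA3 had 1.36 ± 0.143 against 3.98 ± 1.30 FPKM. None of these 6 genes overlapped between the ages, which was a condition of their selection. Without M replicate 1 the differences of TRIM62 (0.97) and DOT1L (0.83) were below the size of the call, and for DOT1L also without Y replicate 2 (0.99) or Y replicate 3 (0.89). Of the 8 host genes annotated with serine/threonine kinase activity, 4 met the call as higher and none as lower. The call was met by 4.01% of all tested genes as higher and 5.25% as lower. At an unadjusted limma p under 0.05 alone, 4 of the 8 were higher and 1 was lower.

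The 8 host genes called lower at 5 years included SOX11, HOXA3, RAMP3, NOXO1, C22orf31, UBALD1 and CBFA2T3. HOXA3, a homeodomain transcription factor, had 3.56, 5.31 and 6.62 FPKM at 1.5 years and 1.26, 3.12 and 2.24 FPKM at 5 years, with a peak in the second and last exon (chr4:56033613-56033863). The highest M library of HOXA3 was just below the lowest Y library, and the log2 difference was -1.23 ± 0.359 (SE, limma adjusted p = 0.154). SOX11, a transcription factor of progenitor cells, had 1.25, 1.50 and 3.29 FPKM against 0.484, 0.830 and 0.225 FPKM on the identifier ENSBGRG00000010073. RAMP3 had 1.25, 2.19 and 2.07 FPKM against 0.398, 0.829 and 0.979 FPKM. NOXO1, an organizer of the NADPH oxidase, had 11.8, 5.80 and 5.11 FPKM against 1.82, 4.02 and 3.47 FPKM, and 1 Y library was far above the others. RABIF, which held 2 peaks, had 9.73, 7.56 and 8.56 FPKM against 1.17, 6.40 and 5.73 FPKM and did not meet the call. UBALD1 and CBFA2T3 overlapped between the ages and were named after their values were seen. Without M replicate 1 the call was lost in HOXA3 (-0.89), RAMP3 (-0.91), NOXO1 (-0.90) and C22orf31 (-0.69). It was also lost in NOXO1 without Y replicate 1 (-0.87) and in C22orf31 without any 1 of the Y libraries (-1.40 to -1.30).

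**Figure D5:**
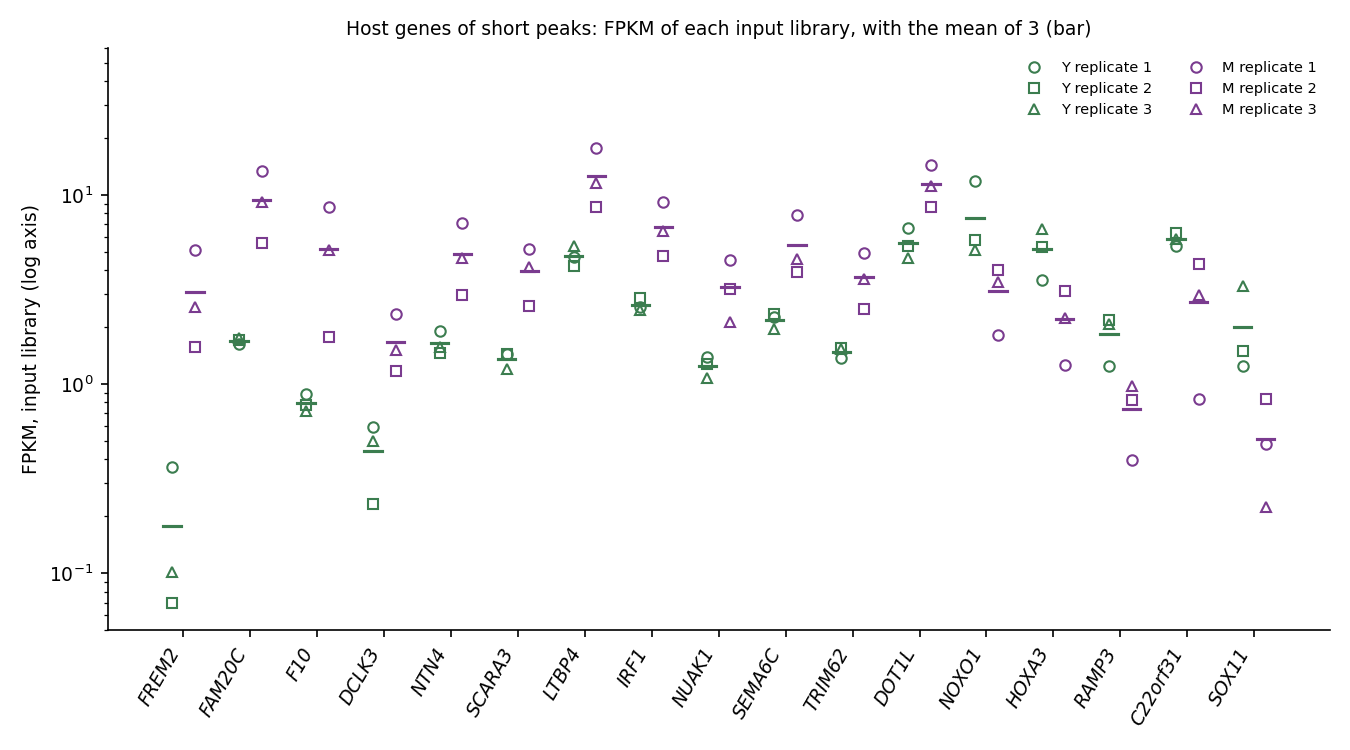
FPKM of each input library (log axis) for 17 host genes called between the ages whose libraries do not overlap, with Y libraries in green, M libraries in purple, a symbol shape for each replicate number and a bar at the mean of 3. FREM2 to DOT1L are higher at 5 years and NOXO1 to SOX11 lower, and M replicate 1 is the farthest from the Y libraries in each of them except SOX11.

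Of the 13 host genes with 3 or more short peaks and expression values, FREM2 and RAI1 met the call, beside 9.26% of all tested genes. RAI1 had 0.986, 1.05 and 0.679 FPKM at 1.5 years and 3.36, 1.66 and 1.59 FPKM at 5 years, and its log2 difference of 1.13 was 0.80 without M replicate 1 and 0.96 without Y replicate 3. CASP8AP2 had 2.28, 2.33 and 2.15 FPKM against 3.64, 2.66 and 3.34 FPKM, a log2 difference of 0.48. TRANK1 had 2.45, 2.77 and 2.79 FPKM against 5.21, 3.99 and 5.36 FPKM, a log2 difference of 0.83, and AHDC1 had one of 0.88. The libraries did not overlap in these genes, nor in MACF1 (0.44), CHSY1 (0.80), PABPC5 (0.58), KIAA0232 (0.29), DMXL2 (0.27), ZNF292 (0.21) or ZNF470 (0.15). Every M library was above every Y library in 19.8% of all tested genes. The share was 35.9% of all tested host genes and 56.6% of those with 2 or more short peaks. They overlapped in TNRC18, which had 6.40, 6.30 and 5.72 FPKM against 6.80, 6.03 and 6.67 FPKM.

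The most abundant host gene was CNOT1, the scaffold of the CCR4-NOT deadenylase complex, with 66.6, 66.6 and 68.3 FPKM at 1.5 years and 48.4, 69.1 and 61.9 FPKM at 5 years. Its groups overlapped, with M replicates 1 and 3 below and M replicate 2 above all Y libraries. HGH1 (29.5 ± 0.482 against 26.3 ± 4.86 FPKM, SD, n = 3), KIAA1109, CNTROB, a centriole protein, and ZMYM6 overlapped as well. SPTAN1, the alpha chain of non-erythroid spectrin, had 17.4, 17.6 and 16.9 FPKM against 27.3, 19.3 and 25.2 FPKM, all M libraries being higher. DPP7, a lysosomal peptidase, had 27.9, 16.1 and 27.2 FPKM against 11.8, 16.1 and 11.1 FPKM, and the second value of each age was nearly the same. ZNF451, a SUMO ligase, had 18.0, 18.0 and 17.9 FPKM against 11.4, 14.8 and 13.9 FPKM, a log2 difference of -0.43. The 27 ZNF hosts had a median log2 difference of 0.17, as had all tested genes with a ZNF symbol. None of the 27 met the call, beside 5.69% of all tested genes with a ZNF symbol.

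Of 59 cell type markers in the gene table, 3 were host genes (5.08%), as were 2.10% of all genes of the table. The second share includes genes too low to be tested, as 59.4% of the table was tested against 99.1% of the host genes in it. KIT, the receptor tyrosine kinase of differentiating spermatogonia, had a peak in exon 6 of 22 (chr6:52213458-52213607) and 3.74, 4.02 and 3.43 FPKM at 1.5 years against 4.77, 4.58 and 3.85 FPKM at 5 years, and the ages overlapped. DHH, a hedgehog ligand secreted by Sertoli cells, had a peak in exon 2 of 4 (chr5:76709039-76709544). Its values of 2.74, 2.61 and 1.79 FPKM were all below the 6.43, 3.43 and 4.71 FPKM of the M libraries, with a log2 difference of 0.98 ± 0.271 (SE, limma adjusted p = 0.154). SMO, the signal transducer of the hedgehog pathway, was also a host and had 1.33 ± 0.319 FPKM against 2.12 ± 0.386 FPKM (SD, n = 3). MYLK, the myosin light chain kinase of contractile cells, had 1.39, 1.43 and 1.16 FPKM against 3.28, 1.73 and 2.71 FPKM. IGF2R, the receptor that clears IGF2, had 2.49, 2.61 and 2.32 FPKM against 5.90, 3.13 and 4.61 FPKM, with a peak in exon 49 of 51. None of the 9 spermatocyte, 6 round spermatid and 4 elongating spermatid markers in the gene table hosted a short peak. None of the 16 genes measured from a list of 23 m6A writers, erasers, readers and their partners was a host gene. None of these 16 met the call, beside 9.26% of all tested genes. With 2.10% of the genes of the table as hosts, lists this short cannot show an absence.

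Of the chromatin regulators, KDM6A had 1.72, 1.93 and 1.61 FPKM at 1.5 years against 4.20, 2.84 and 3.22 FPKM at 5 years, with peaks in exons 17 and 18 of 30. ATRX had 1.07, 1.21 and 1.11 FPKM against 2.78, 1.42 and 2.26 FPKM. The libraries of both genes did not overlap, and their log2 differences of 0.91 and 0.83 were below the size of the call. Among the 50 tested hosts with transcription factor activity, 1 met the call, beside 9.26% of all tested genes. This was TSHZ1, with 0.589, 0.937 and 0.760 FPKM against 2.78, 1.14 and 1.84 FPKM. Its log2 difference was 1.16, or 0.87 without M replicate 1. ZFP36L2, which promotes decay of AU-rich mRNAs, had 2 peaks in its last exon and 6.49, 6.78 and 5.54 FPKM against 16.8, 9.73 and 11.9 FPKM.

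Of the 5 host genes annotated with spermatogenesis and the 7 with microtubule, FAM110C met the call as higher and none as lower. Beside these stand 4.01% of all tested genes as higher and 5.25% as lower. RAI14, an actin-binding protein of the seminiferous epithelium, had 11.8, 11.1 and 10.9 FPKM against 3.51, 8.91 and 6.89 FPKM. DNAH10 had 3.47, 3.65 and 3.00 FPKM against 1.64, 2.80 and 2.78 FPKM, and DNAH3 had 3.48, 2.32 and 3.99 FPKM against 1.33, 3.37 and 1.39 FPKM. The ages did not overlap in RAI14 and DNAH10 and overlapped in DNAH3. The translation factor EIF4G1, with 2 peaks, had 13.04, 12.02 and 12.91 FPKM against 8.21, 9.59 and 10.2 FPKM. SNRK, a kinase whose peak the gene column assigns to ANO10, had 16.96, 12.83 and 16.38 FPKM against 8.52, 7.27 and 9.05 FPKM, a log2 difference of -0.88 ± 0.169 (SE, limma adjusted p = 0.154). Whether FPKM were counted by strand is not given in the sources used here, so reads of overlapping genes such as SNRK and ANO10 or DPP7 and UAP1L1 cannot be told apart.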

How the data were processed

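Yak testes of 1.5 years (Y) and 5 years (M) were sequenced as IP and input libraries, and each sample was placed by the age its title gives. The stage recorded for the samples runs opposite to these ages throughout and was left aside, so an exchange of the ages cannot be told apart from a wrong stage entry. The authors used Trimmomatic for trimming and SortMeRNA against rRNA, then mapped to LU_Bosgru_v3.0 with HISAT2 2.0.4 (versions from the submitters' processing notes) and retained reads with a single location. FPKM per gene and input library were deposited by the authors, and the program that computed them is not given in the sources used here. Peaks were called with MeTDiff against the input, compared between the ages (p at most 0.05, fold at least 1.5) and annotated with ChIPseeker by the authors. How replicates entered that comparison is not given in the sources used here. The peak lists of the single groups, as deposited, hold 7 peaks each, far fewer than the article reports for either age, and were not used.

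Exon number, exon count and host gene were read from the exon entry of each peak. Log2(FPKM + 0.1) of genes with a mean of at least 0.5 FPKM entered a linear model of age in R 4.3.3 (limma 3.58.1, moderated with a mean trend, two-sided, Benjamini-Hochberg adjustment over all tested genes), 3 libraries against 3. These steps were tested on simulated data in which genes varied independently and with the same spread at both ages. A library that differs from its group across many genes, as M replicate 1 did, was not simulated. The p-values measure the spread between these libraries only. An exact permutation test of 3 against 3 cannot go below 0.1. Shares have 95% Wilson intervals. Python 3.11.15 and pandas 2.3.3 were used for the rest.

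Named genes were hosts with 3 or more peaks, those with the smallest p in each direction, the most abundant hosts, hosts in marker lists or among genes the study names, up to 4 hosts per GO term, and peaks at extremes of position and width. UBALD1, CBFA2T3 and the ZNF group were chosen after their values were seen, as were the examples ATM, ADCY9, ZNF618 and CCDC50. Some genes that the rule selects are not reported here. The members and lists were chosen with earlier results of these data known. The same animal numbers at both ages name different yaks. Their deviations from the group means correlated at -0.022, -0.091 and 0.0067, so the numbers do not pair the samples. Alternatives were other pseudocounts, filters, scalings, thresholds, width limits, host gene columns, and each library left out. Sequences and motifs of the peaks were not analysed here.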

Additional observations from a re-analysis of the deposited data

How the results depend on the processing

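The count of 42 called host genes (1152 among all tested genes) was 11 (501) with a pseudocount of 1, 120 (2445) with a fold threshold of 1.5 in place of 2, and 0 (4) with an adjusted p under 0.05. Leaving out 1 library gave 14 to 93 called host genes and 394 to 2034 genes in all, and both extremes came from the 5-year group, the lowest without replicate 1 and the highest without replicate 2. With a replicate block the count was 41, with 33 higher and 8 lower, and the median log2 difference was 0.21. The numbers name different yaks, and the block moved neither this count nor the 1152 by more than 1.5 times. Called host genes were mostly higher under each alternative that made calls, although among all genes the pseudocount of 1 gave 123 higher and 378 lower. The median host difference was 0.17 to 0.28 over the libraries left out, and 0.18 with quantile normalization, where the median of all genes was 0.03. The share in the last exon was 38.9% for peaks of at most 500 bp and 29.8% for those of at most 2000 bp. The choices of the gene column as host (465 genes, 40 called) and of leaving out peaks with 2 gene names (33.3% in the last exon) were added after seeing the data and changed no direction. Among named genes that did not meet the call, the log2 difference changed sign with quantile normalization for CNOT1 (0.089), HGH1 (0.0083) and KIAA1109 (0.11). It also did so without M replicate 1 for 4 genes, whose values over the libraries left out ranged from -0.096 to 0.057 (KIAA1109), -0.35 to 0.016 (CNTROB), -0.35 to 0.032 (AGPS) and -0.017 to 0.33 (PPP6R2). Of the 364 alternative values for named genes that met the call, 319 still met it and 45 did not, in 18 genes. Read depth per gene is unknown, and values under 1 FPKM such as those of FREM2 at 1.5 years limit how well a ratio is known.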

Other observations

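Of the host genes with a log2 difference over 2 that were not described above, XRCC4, a DNA end-joining factor, had 0.595, 0.358 and 0.515 FPKM at 1.5 years and 5.55, 0.770 and 3.01 FPKM at 5 years, and LRP2, an endocytic receptor, had 0.108, 0.164 and 0.0489 FPKM against 1.47, 0.267 and 1.13 FPKM. Both had every M library above every Y library and M replicate 1 highest. FAM110C, a centrosome-associated protein, had 0.281, 0.562 and 0.383 FPKM against 3.73, 0.669 and 1.70 FPKM, with its peak in the second and last exon.

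ACAN, the cartilage proteoglycan aggrecan, had 2.52, 1.99 and 2.44 FPKM at 1.5 years and 1.07, 1.76 and 0.983 FPKM at 5 years. Every M library was below every Y library. Of the 8 host genes annotated with the extracellular matrix, 3 were higher and 1, ACAN, lower at an unadjusted p under 0.05, with a median log2 difference of 0.26. LRP2 was named after its values were seen.

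The summed FPKM of the remaining marker lists, in the Y and then in the M libraries, was 76.7 to 86.1 and 89.2 to 154 for 8 spermatogonia markers, 99.1 to 103 and 83.3 to 103 for 9 spermatocyte markers, and 183 to 255 and 50.6 to 187 for 6 round spermatid markers. For 2 Leydig cell markers it was 10.1 to 19.1 and 7.40 to 8.40, for 7 macrophage markers 28.4 to 35.9 and 40.3 to 46.1, for 6 endothelial markers 7.17 to 9.55 and 8.32 to 11.7, and for 2 erythroid markers 0.0819 to 0.863 and 0.242 to 0.666. The macrophage list was split, with 2 members called higher and 2 called lower, beside 4.01% and 5.25% of all tested genes. AIF1 and CD163 had every M library below every Y library, so the sum does not describe each member. The 16 genes of the m6A machinery summed to 211 to 228 and 197 to 229 FPKM, so the sum overlapped between the ages. ALKBH5 and PRRC2A made up much of this sum. In VIRMA, RBM15B, ZC3H13, YTHDC1 and ELAVL1 every M library lay above every Y library, which was so in 19.8% of all tested genes. The ages overlapped in the other genes of this list.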
